A study of Mus musculus with 12 samples.

Results

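Smooth muscle contractile genes encode the filaments that let airways and vessels narrow. Here 10 of them (Myh11, Acta2, Tagln, Cnn1, Actg2, Des, Lmod1, Smtn, Myl9 and Synpo2) were followed in mouse lung. Members were all probe sets annotated to exactly 1 of these symbols, which gave 17 of the 45101 probe sets on the array. All 10 genes passed the filter on low values, among 17569 genes tested, and 16 of the 17 probe sets passed it in every array. Each gene was represented by its probe set with the highest mean signal.

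Total RNA from left lung homogenates was measured on 12 arrays, with 1 mouse per array and 3 mice in each of 4 groups. WT-Air and WT-O3 were wild-type (Nfkb1+/+) mice of the strain B6129PF2/J, kept in filtered air or given 0.3 ppm ozone (O3) without a break for 48 h. Nfkb1KO-Air and Nfkb1KO-O3 were Nfkb1-/- mice under the same exposures, homozygous for the Nfkb1tm1Bal allele, and lack the p50/p105 subunit of the transcription factor NF-kB in every cell. All were bought males aged 6 to 8 weeks, and air and O3 were given in separate chambers, so chamber and exposure cannot be told apart. The wild-type mice were a matched hybrid strain and were not described as littermates, so the loss of Nfkb1 and the genetic background around it cannot be told apart either. Nfkb1 itself was not analysed here, so the genotype labels were not checked on the targeted gene. Synpo2 lies on chromosome 3 within 20 Mb of Nfkb1, and no other member lies on that chromosome.

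In a smooth muscle cell, myosin pulls on actin filaments once its regulatory light chain has been phosphorylated by a calcium-dependent kinase. The genes of this machinery are switched on together by serum response factor, which binds a short DNA element called the CArG box with the help of myocardin family coactivators. In the lung these genes are used by airway smooth muscle, by the walls of arteries and veins and, for some of them, by pericytes and contractile fibroblasts.

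The CArG box is shown for the members whose RefSeq promoter window (GRCm38.p6, 250 bases before to 50 after the gene start) held it or held a version in which 1 of the 6 inner positions was not A or T. The 10 bases that match are in capitals, each in a stretch of 30 bases. Of 10 members, 7 had a promoter entry. The motif reads alike on both strands, so each match was counted once. The Myl9 window at chromosome 2, plus strand, held the full motif from 161 bases before the start and the version with 1 departure from 99 bases before it. The Acta2 window at chromosome 19, minus strand, held the version with 1 departure from 84 and from 34 bases before the start.
Myl9, chr2:156775293-156775322: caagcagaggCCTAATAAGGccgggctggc
Myl9, chr2:156775355-156775384: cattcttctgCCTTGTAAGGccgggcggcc
Acta2, chr19:34255438-34255467: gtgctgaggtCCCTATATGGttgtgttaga
Acta2, chr19:34255388-34255417: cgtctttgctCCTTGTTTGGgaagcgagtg
The full motif was in 1.63% of the 32851 promoter windows and the version with 1 departure in 8.5%. These letters were in neither form in the windows of Des, Lmod1, Synpo2, Cnn1 and Smtn. Myh11, Tagln and Actg2 had no entry.

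Levels below are log2 signals after quantile normalisation, so a difference of 1 is a factor of 2, and levels were compared only within a probe set. The array median of the deposited signal was 99.14 to 121.2 in 11 arrays and 180.1 in Nfkb1KO-Air replicate 1. WT-Air replicate 3 stood apart by skeletal muscle transcripts, with a log2 signal of 12.31 for the fast muscle myosin Myh4. The mean log2 signal of the 14 skeletal muscle markers was 11.31 in that array, 9.02 in Nfkb1KO-O3 replicate 2, 8.12 in WT-Air replicate 1 and 5.26 to 7.07 in the other arrays. Counts of members called are also given without Nfkb1KO-Air replicate 1 and WT-Air replicate 3. Leaving these 2 out, 0 members were called in the comparisons other than O3 in Nfkb1KO. The labelled tissue was borne out by the alveolar epithelial markers, whose mean log2 signal was 13.17 to 13.48 in every array.

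The clearest change was in Nfkb1-deficient lungs after O3. Compared with Nfkb1KO-Air, 6 of the 10 contractile genes fell in Nfkb1KO-O3 by limma with Benjamini-Hochberg adjustment over all genes (adjusted p under 0.05), while 2.83% of all genes were called lower. The smooth muscle myosin heavy chain, its light chain, both smooth muscle actins, transgelin and calponin were the 6. The median difference over the 10 members was -0.76, against -0.01 over all genes, and all 10 were below 0, as were 51.4% of all genes. At an unadjusted p under 0.05, 9 of the 10 were lower, against 10.6% of all genes. In 8 of the 10 the arrays of the 2 groups did not overlap, which held in the lower direction for 12.3% of all genes. Without the 2 arrays that stand apart, 5 members were called, all but Myl9. The members were chosen with earlier results of these data known, and they varied together from mouse to mouse. The shares of all genes given here and below therefore describe the members and are no test of them as a set. Whole lung RNA does not tell fewer smooth muscle cells from less RNA per cell.

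**Figure D1:**
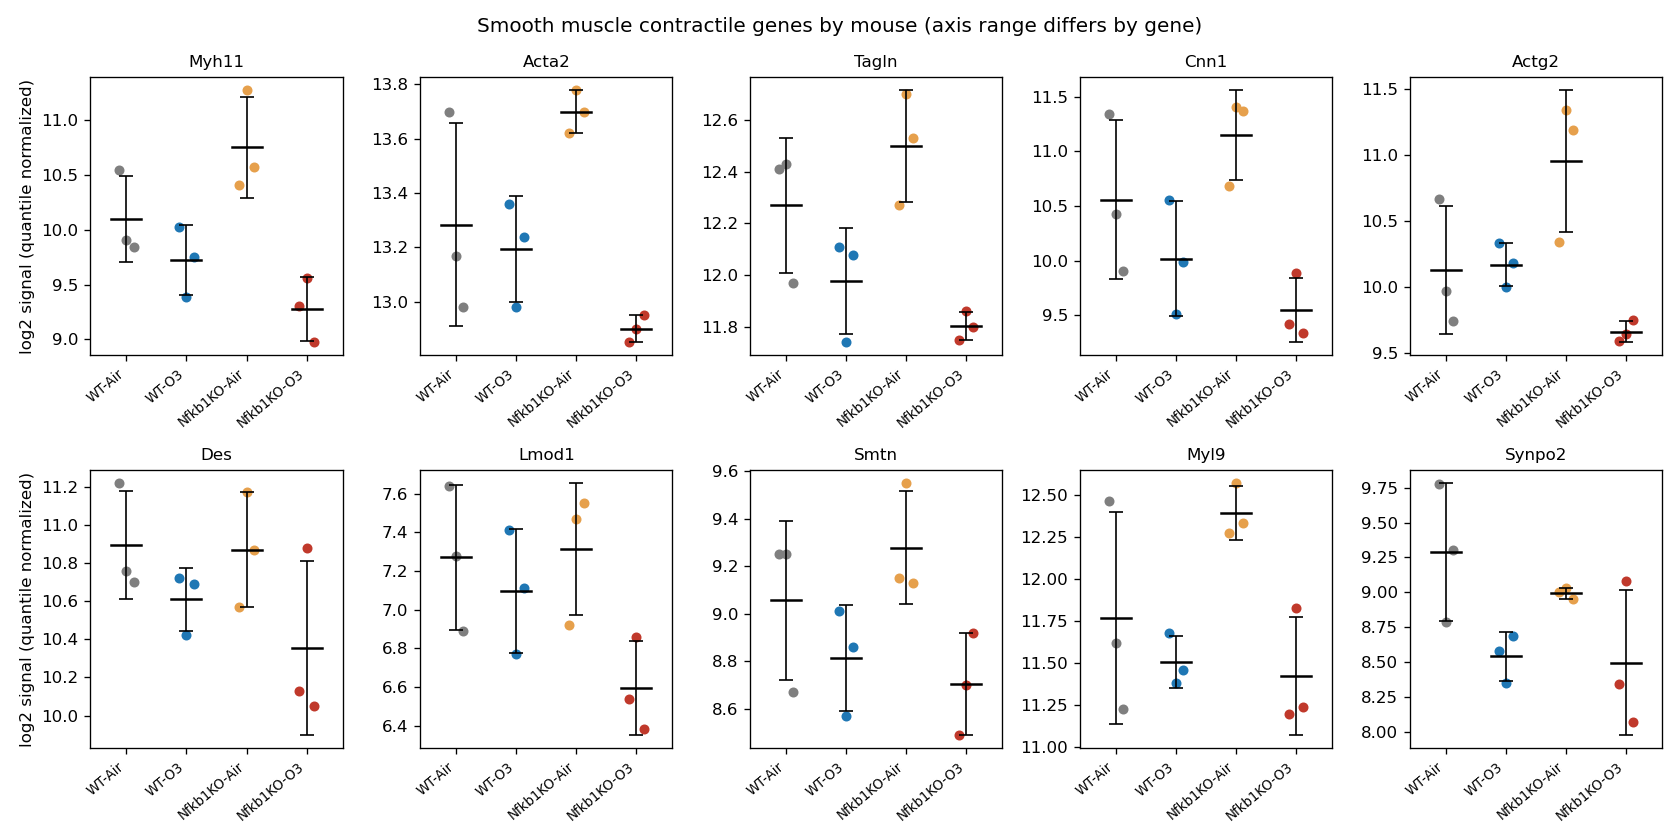
Log2 signal of the 10 smooth muscle contractile genes (vertical axis, a range of its own in each panel) in the 4 groups, with 1 point per mouse, the group mean as a thick bar and the SD as a thin bar. Nfkb1KO-O3 held the lowest group mean in all 10 genes, and in Myh11, Acta2, Tagln, Cnn1, Actg2, Lmod1, Smtn and Myl9 its 3 mice lay below the 3 of Nfkb1KO-Air.

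Of the thick filament genes, Myh11 encodes the myosin heavy chain that defines mature smooth muscle. Its log2 signal was 10.41, 11.28 and 10.57 in Nfkb1KO-Air and 9.30, 9.56 and 8.97 in Nfkb1KO-O3. In the wild type it was 10.55, 9.91 and 9.84 in air and 10.03, 9.39 and 9.75 after O3. Every Nfkb1KO-Air mouse was above every Nfkb1KO-O3 mouse, whereas the wild-type groups overlapped. Myh11 fell by 1.48 ± 0.25 (SE, n = 3 per group), or 2.78-fold, in the Nfkb1-deficient lungs (limma, adjusted p = 0.00636). Myl9 encodes the regulatory light chain whose phosphorylation starts contraction. Its log2 signal was 12.27, 12.57 and 12.33 in Nfkb1KO-Air, 11.20, 11.83 and 11.24 in Nfkb1KO-O3, 12.46, 11.62 and 11.23 in WT-Air and 11.68, 11.38 and 11.46 in WT-O3. The mice of Nfkb1KO-Air were again all above those of Nfkb1KO-O3, and WT-Air spanned most of the range of the other groups. Myl9 fell by 0.97 ± 0.25, or 1.96-fold (limma, adjusted p = 0.0416). This call was close to the threshold and was lost in 8 of the 12 fits that each left out 1 array, with adjusted p up to 0.15 without Nfkb1KO-O3 replicate 1.

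Of the thin filament genes, Acta2 encodes the vascular form of smooth muscle actin. Its log2 signal was 13.62, 13.78 and 13.70 in Nfkb1KO-Air, 12.85, 12.90 and 12.95 in Nfkb1KO-O3, 13.70, 13.17 and 12.98 in WT-Air and 13.36, 12.98 and 13.24 in WT-O3. Both Nfkb1-deficient groups were tight, with SDs of 0.08 and 0.05, and lay on either side of nearly all wild-type mice. Acta2 fell by 0.80 ± 0.15, or 1.74-fold (limma, adjusted p = 0.0101). Its probe set carries the array maker's suffix for probes shared by more than 1 transcript, and the part of other actins in its signal was not tested. Actg2 encodes the enteric form of smooth muscle actin, which in the lung marks smooth muscle. Its log2 signal was 10.34, 11.34 and 11.19 in Nfkb1KO-Air, 9.59, 9.64 and 9.75 in Nfkb1KO-O3, 10.67, 9.97 and 9.74 in WT-Air and 10.33, 10 and 10.18 in WT-O3. The lowest Nfkb1KO-Air mouse was still above the highest Nfkb1KO-O3 mouse. Actg2 fell by 1.30 ± 0.25, or 2.47-fold (limma, adjusted p = 0.0116).

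Tagln and Cnn1 encode transgelin and calponin, which bind actin filaments and serve as early and late markers of the contractile state. Tagln log2 signal was 12.27, 12.70 and 12.53 in Nfkb1KO-Air, 11.75, 11.86 and 11.80 in Nfkb1KO-O3, 12.41, 12.43 and 11.97 in WT-Air and 12.11, 11.74 and 12.08 in WT-O3. Tagln fell by 0.70 ± 0.14, or 1.62-fold (limma, adjusted p = 0.0141), with no overlap between the Nfkb1-deficient groups. Cnn1 log2 signal was 10.68, 11.41 and 11.37 in Nfkb1KO-Air, 9.42, 9.89 and 9.34 in Nfkb1KO-O3, 11.34, 10.43 and 9.91 in WT-Air and 10.56, 9.51 and 9.99 in WT-O3. The wild-type mice spread over most of the range between the Nfkb1-deficient groups. Cnn1 had the largest fitted difference of the 10 members and the widest error, a fall of 1.60 ± 0.34, or 3.04-fold (limma, adjusted p = 0.0178).

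The calls rested on 3 mice per group. Without Nfkb1KO-O3 replicate 1, only Myh11 and Acta2 were called. Cnn1 was also lost without Nfkb1KO-Air replicate 3 (adjusted p = 0.058) and without Nfkb1KO-O3 replicate 3 (adjusted p = 0.059), which left 4 called in each case. With arrays centred on their medians in place of quantile normalisation, 0 of the 10 were called by limma and 4 were below an unadjusted p of 0.05, where 3858 of 17569 genes were, in either direction. That scaling moved the median of all genes to 0.25 and the median of the members to -0.40, and 19 of the 308 genes it called were lower, against 497 of 1086. All 10 members kept a negative difference under it.

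The other 4 members did not pass the test. Des encodes desmin, the intermediate filament of muscle, and its difference was -0.52 ± 0.22 (limma, adjusted p = 0.189). Its Nfkb1KO-O3 mice were at 10.13, 10.88 and 10.05 and overlapped with 10.57, 11.17 and 10.87 in Nfkb1KO-Air. Without Nfkb1KO-O3 replicate 2, the high mouse, Des was called at -0.78 (adjusted p = 0.04) and 7 members were called in all. Lmod1, which encodes the actin nucleator leiomodin 1, differed by -0.72 ± 0.28 (limma, adjusted p = 0.153), with 6.92, 7.47 and 7.55 in Nfkb1KO-Air and 6.54, 6.86 and 6.38 in Nfkb1KO-O3. Smtn, which encodes smoothelin of contractile smooth muscle cells, differed by -0.57 ± 0.19 (limma, adjusted p = 0.106), with 9.15, 9.55 and 9.13 against 8.49, 8.70 and 8.92. Neither Lmod1 nor Smtn overlapped between these groups. Synpo2, which encodes the actin-bundling protein myopodin, differed by -0.50 ± 0.26 (limma, adjusted p = 0.302), with 9.0, 9.03 and 8.95 against 8.34, 9.08 and 8.07. Its 3 air mice were nearly equal and lay inside the range of the O3 mice.

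In wild-type lungs, O3 did not bring any member past the threshold. With limma, 0 of 10 were called, against 5.4% of all genes, and 1 of 10 was under an unadjusted p of 0.05, against 19.7% of all genes. The median difference was -0.27, against -0.03 over all genes, and 9 of the 10 were negative, as were 53.5% of all genes. The exception in sign was Actg2, at 0.04 ± 0.25. The median depended on single mice. It was -0.13, with 6 negative and 0 under an unadjusted p of 0.05, without WT-Air replicate 1, and -0.18 without WT-O3 replicate 2. It was -0.44, with 10 negative and 5 under an unadjusted p of 0.05, without WT-Air replicate 3, and without the 2 arrays that stand apart it was -0.45, with 4. Without WT-O3 replicate 1, 3 were under that threshold, and without either Nfkb1KO-Air replicate 1 or Nfkb1KO-Air replicate 2 there were 2. Synpo2 had the largest difference, with 9.78, 8.79 and 9.30 in WT-Air and 8.58, 8.35 and 8.69 in WT-O3. These mice did not overlap, and the difference was -0.75 ± 0.26, or 1.69-fold (limma, adjusted p = 0.126). It was the only member whose wild-type groups did not overlap, which in the lower direction held for 14.1% of all genes. It was called at -1.0 without WT-Air replicate 2 (adjusted p = 0.044). The 95% intervals of the remaining differences ran from -0.93 to 0.17 for Myh11, from -1.29 to 0.20 for Cnn1 and from -0.42 to 0.23 for Acta2, so a fall of up to the lower bound was within the error.

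Whether the O3 response differed between genotypes was tested by the interaction, the O3 difference in Nfkb1KO minus that in WT. With limma, 0 of 10 members were called, as against 0.0342% of all genes. An unadjusted p under 0.05 was reached by 4 members, all lower, where 2.8% of all genes were. The interaction was -1.35 ± 0.36 for Actg2 (adjusted p = 0.637), -0.70 ± 0.21 for Acta2 (adjusted p = 0.691), -1.10 ± 0.36 for Myh11 (adjusted p = 0.771) and -1.06 ± 0.48 for Cnn1 (adjusted p = 0.81). The median over the members was -0.63, against 0.01 over all genes, and 9 of the 10 were negative, as were 48.5% of all genes. Synpo2 was positive, at 0.26 ± 0.37, by the probe set that stood for it. With arrays centred on their medians, 0 members were under an unadjusted p of 0.05, the member median was -0.29 and that of all genes was 0.25. With 1 array left out, 3 to 6 members were under it, the 6 without WT-Air replicate 1, and the median was -0.40 without WT-Air replicate 3. Without the 2 arrays that stand apart, 4 were. The O3 effect of the 2 genotypes was thus not shown to differ for any of the 10 genes.

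**Figure D2:**
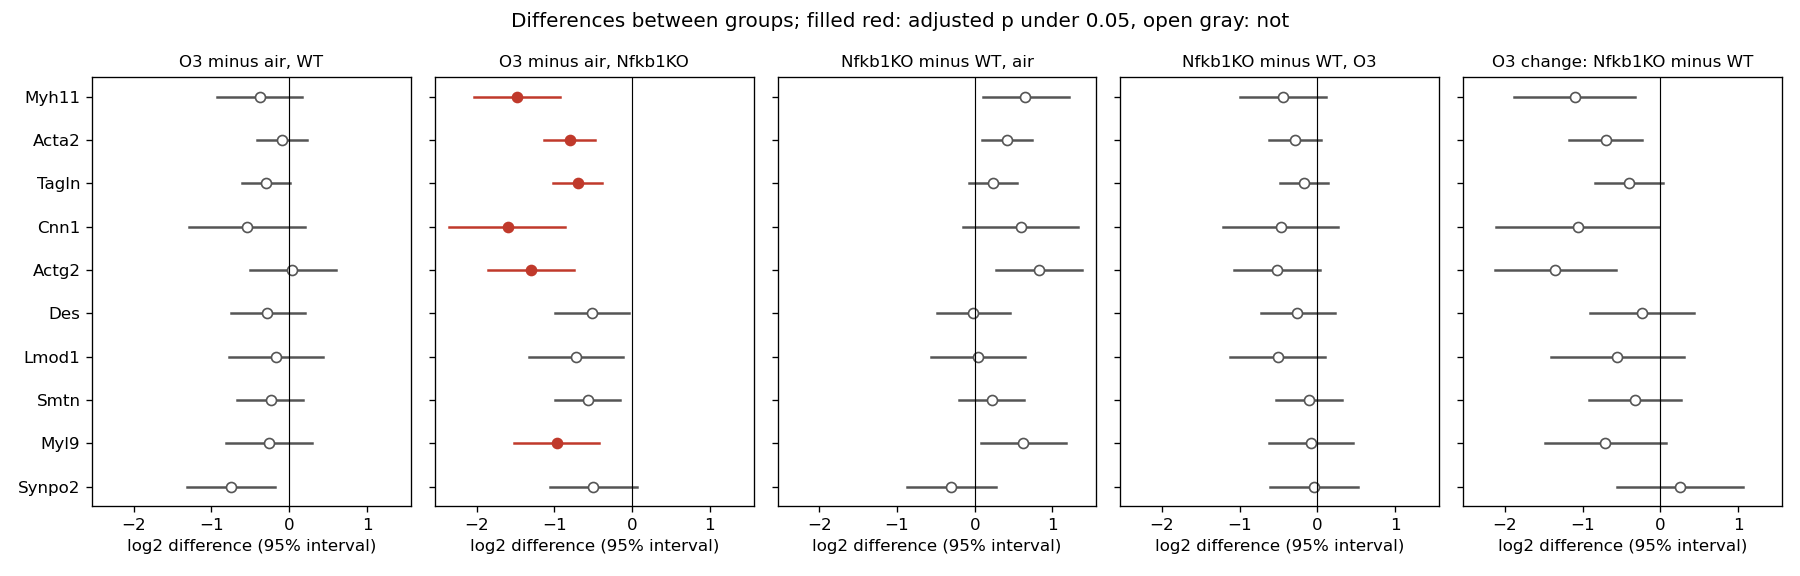
Log2 differences of the 10 genes (horizontal axis) with 95% intervals from limma in 5 comparisons, one per panel, where filled red points have an adjusted p under 0.05 and open points do not. Filled points stand in the O3 panel of Nfkb1KO alone, for Myh11, Acta2, Tagln, Cnn1, Actg2 and Myl9.

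The genotypes were also compared under each exposure. In filtered air, 0 of 10 members were called by limma, against 0.342% of all genes, and 4 were higher in Nfkb1KO-Air at an unadjusted p under 0.05, against 5.56% of all genes. The 4 were Actg2 at 0.83 ± 0.25 (adjusted p = 0.242), Myh11 at 0.65 ± 0.25 (adjusted p = 0.357), Myl9 at 0.62 ± 0.25 (adjusted p = 0.371) and Acta2 at 0.41 ± 0.15 (adjusted p = 0.323). The groups overlapped in all 10 genes, where 6.63% of all genes were separated upward and 7.26% downward, and WT-Air replicate 1 lay within or above the range of Nfkb1KO-Air in each of them. Without that mouse, Acta2 and Myl9 were called higher in Nfkb1KO-Air, at 0.62 (adjusted p = 0.03) and 0.97 (adjusted p = 0.048). In the other direction, the 4 members at an unadjusted p under 0.05 became 1 without WT-Air replicate 2, WT-Air replicate 3 or Nfkb1KO-Air replicate 2, and 2 without the 2 arrays that stand apart. They were 6 without Nfkb1KO-Air replicate 1. The member median was 0.32, against -0.01 over all genes, and 0.17 without WT-Air replicate 3. With arrays centred on their medians, 0 members were under an unadjusted p of 0.05, and the median was 0.06, against -0.20 over all genes.

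After O3 the genotype differences were small and all 10 were negative, as were 49.5% of all genes. With limma, 0 of 10 members were called, against 0.723% of all genes, and 0 were under an unadjusted p of 0.05, against 9.43% of all genes. The median was -0.27, against 0.00 over all genes. Acta2, at -0.29 ± 0.15, and Actg2, at -0.52 ± 0.25, were lower in every Nfkb1KO-O3 mouse than in every WT-O3 mouse, a separation seen in 9.76% of all genes. Their adjusted p-values were 0.601 and 0.569. Leaving out 1 array in turn, 0 to 2 members were under an unadjusted p of 0.05 (2 without WT-Air replicate 1 or WT-O3 replicate 2) and 8 to 10 were negative. Without Nfkb1KO-O3 replicate 2 the median was -0.42.

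The order of the group means followed from these differences. In 7 of 10 genes it ran from Nfkb1KO-Air through WT-Air and WT-O3 down to Nfkb1KO-O3. Actg2 had the 2 wild-type groups the other way round, at 10.13 ± 0.48 in WT-Air and 10.17 ± 0.16 in WT-O3 (SD, n = 3). Des and Synpo2 were highest in WT-Air, at 10.89 ± 0.28 and 9.29 ± 0.50, though Des was at 10.87 ± 0.30 in Nfkb1KO-Air. By the Synpo2 probe sets 1435399_at and 1441206_at, Nfkb1KO-Air was highest, at 9.36 and 8.49 against 8.95 and 8.34 in WT-Air. Among neighbours in these orders that share a genotype or an exposure, no pair differed by the test, and the ends, the Nfkb1-deficient mice in air and after O3, differed for the 6 genes called.

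The members also varied together from mouse to mouse. With each gene set to mean 0 and SD 1 over the 12 arrays, the mean over the 10 members was 1.22, 0.15 and -0.42 in WT-Air, 0.11, -0.89 and -0.22 in WT-O3, 0.40, 1.47 and 0.99 in Nfkb1KO-Air and -1.22, -0.42 and -1.18 in Nfkb1KO-O3. The 3 WT-Air mice thus covered much of the range of the whole study. After the group means were removed, the Pearson correlation of each member with the mean of the other members over the 12 arrays was 0.96 for Cnn1, 0.913 for Lmod1, 0.895 for Myl9 and 0.884 for Myh11. It was lowest for Smtn, at 0.622, and Synpo2, at 0.558. These genes were read on the same arrays and share each array's tissue piece, so the values describe how they moved together and carry no test.

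The 5 non-member genes closest to the member mean by Pearson correlation over the 12 arrays were Ttc30a1 (0.929), Tpm2 (0.921), Cpxm2 (0.909), Ehf (0.908) and Erich2 (0.908). Within groups their correlations were 0.802 to 0.826, with Tpm2 at 0.815, so Tpm2 was not set apart from the others. Tpm2 encodes beta-tropomyosin, a thin filament protein of muscle. Which lung cells hold the RNA of the other genes was not tested. The log2 signal of Tpm2 was 12.20, 12.54 and 12.35 in Nfkb1KO-Air and 11.19, 11.51 and 11.54 in Nfkb1KO-O3. Tpm2 fell by 0.95 ± 0.16, or 1.93-fold (limma, adjusted p = 0.00599), and the other four did not pass the test in that comparison, with adjusted p from 0.0503 to 0.0708. The 5 genes were picked over these same arrays, in which the member mean separated Nfkb1KO-Air from Nfkb1KO-O3. Their differences between these groups thus followed in part from the choice and are no separate support.

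Several members had more than 1 probe set, and these did not always move alike. In the fit over 42559 probe sets, 7 of the 17 member probe sets were called lower after O3 in Nfkb1KO, where 1.35% of all probe sets were. The only probe set of Myl9 was not among them (limma, adjusted p = 0.05 as rounded), while Synpo2 1435399_at and 1441206_at were. For Synpo2, the brightest of 4 probe sets, 1452879_at, gave -0.50 ± 0.26 in that fit. However, 1435399_at fell by 1.52 ± 0.33, or 2.87-fold (limma, adjusted p = 0.0262), and 1441206_at fell by 1.13 ± 0.26, or 2.18-fold (limma, adjusted p = 0.0356). The fourth, 1450828_at, was at -0.44 ± 0.37. The interaction was 0.26 ± 0.37 for 1452879_at, -0.87 ± 0.47 for 1435399_at, -0.45 ± 0.37 for 1441206_at and 0.02 ± 0.53 for 1450828_at, none called. Thus the call for Synpo2 and the sign of its interaction depended on the probe set. So did the sign of its genotype difference in air, at -0.30 ± 0.26 for 1452879_at and 0.40 ± 0.33 for 1435399_at. Which transcripts each probe set reads was not tested. For Myh11 the bright probe set 1448962_at fell by 1.48 ± 0.25, whereas the dim 1418122_at was at -0.37 ± 0.36. For Acta2 the dim 1444105_at was at -1.27 ± 0.45 and 1456658_at at -0.06 ± 0.84, neither called, and the dim probe set of Des, 1426732_at, was at -0.09 ± 0.51. With the mean of the probe sets of each gene, 4 members were called by limma, without Acta2 (adjusted p = 0.22) and Myl9 (adjusted p = 0.06).

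**Figure D3:**
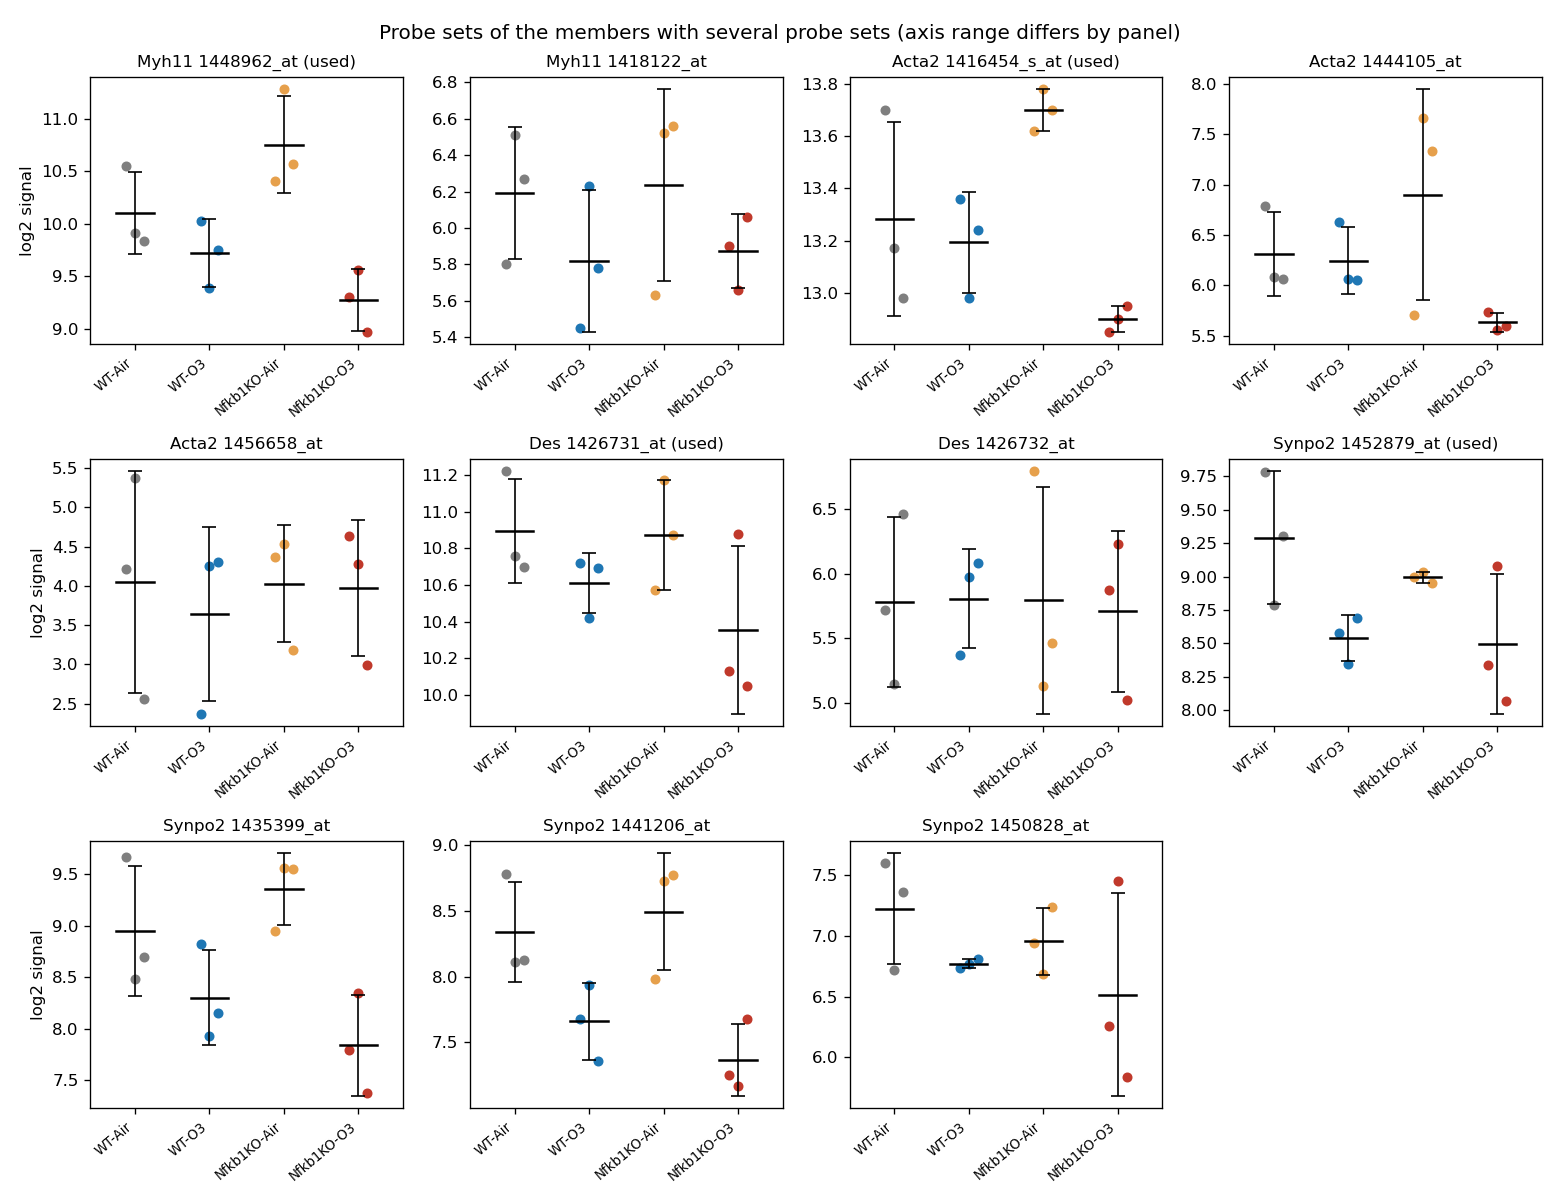
Log2 signal (vertical axis, a range of its own in each panel) of the 11 probe sets of Myh11, Acta2, Des and Synpo2 in the 4 groups, with 1 point per mouse and the mean with its SD. The probe sets marked as used stand for the gene elsewhere. Synpo2 1435399_at and 1441206_at separate Nfkb1KO-Air from Nfkb1KO-O3, while 1452879_at and 1450828_at overlap.

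The neighbouring genes of the pathway were described from 4 lists. Their counts, and those of the marker lists, stand beside 3.35% of all genes called higher and 2.83% called lower after O3 in Nfkb1KO, and 3.16% higher and 2.24% lower in WT. Of 26 measured genes of the contractile apparatus and its regulation, 0 rose and 4 fell after O3 in Nfkb1KO, with a median of -0.18. Mylk, the kinase that phosphorylates Myl9, fell by 0.69 ± 0.10, or 1.62-fold (limma, adjusted p = 0.00324). Tpm2 is given above. Ppp1r12a, the targeting subunit of myosin phosphatase, fell by 0.36 ± 0.08 (adjusted p = 0.025), and Flna, the actin crosslinker filamin A, fell by 0.28 ± 0.08 (adjusted p = 0.0497). In WT, 2 of the 26 rose and 0 fell, with a median of -0.02. These were Actn1, the crosslinker alpha-actinin 1, which rose by 0.63 ± 0.09 (adjusted p = 0.0028), and the small GTPase Rhoa, which rose by 0.34 ± 0.09 (adjusted p = 0.0413). The interaction was not called for any gene of the list.

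Of 19 genes of transcriptional control, 0 rose and 1 fell after O3 in Nfkb1KO, and 2 rose and 1 fell in WT. Mef2c, a partner factor in muscle gene control that is also used by endothelium, fell by 0.67 ± 0.14 in Nfkb1KO (adjusted p = 0.0187) and by 0.67 ± 0.14 in WT (adjusted p = 0.02). Klf4, a factor that represses contractile genes in smooth muscle, rose by 0.84 ± 0.21 in WT (adjusted p = 0.0374) and was at 0.53 ± 0.21 in Nfkb1KO (adjusted p = 0.163). Tgfbr2, a receptor of transforming growth factor beta, rose by 0.44 ± 0.07 in WT (adjusted p = 0.0057) and was at 0.24 ± 0.07 in Nfkb1KO (adjusted p = 0.082). Of 14 receptors that drive or relax smooth muscle, 0 changed in Nfkb1KO, by limma, with 1 under an unadjusted p of 0.05, and 1 fell in WT. That was Tbxa2r, the thromboxane receptor, which fell by 0.54 ± 0.14 in WT (adjusted p = 0.0422) and was at -0.50 ± 0.14 in Nfkb1KO (adjusted p = 0.0509). Of 11 genes of the synthetic smooth muscle state, 1 rose and 1 fell in Nfkb1KO, with a median of 0.11, and 2 rose in WT, with a median of 0.14. Thbs1, the matrix protein thrombospondin 1, rose by 1.99 ± 0.16, or 3.99-fold, in Nfkb1KO (adjusted p = 0.000151) and by 2.03 ± 0.16, or 4.09-fold, in WT (adjusted p = 4.4e-05). S100a4 fell by 0.61 ± 0.16 in Nfkb1KO (adjusted p = 0.0469), and Lgals3, galectin 3, rose by 0.51 ± 0.14 in WT (adjusted p = 0.0469).

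**Figure D4:**
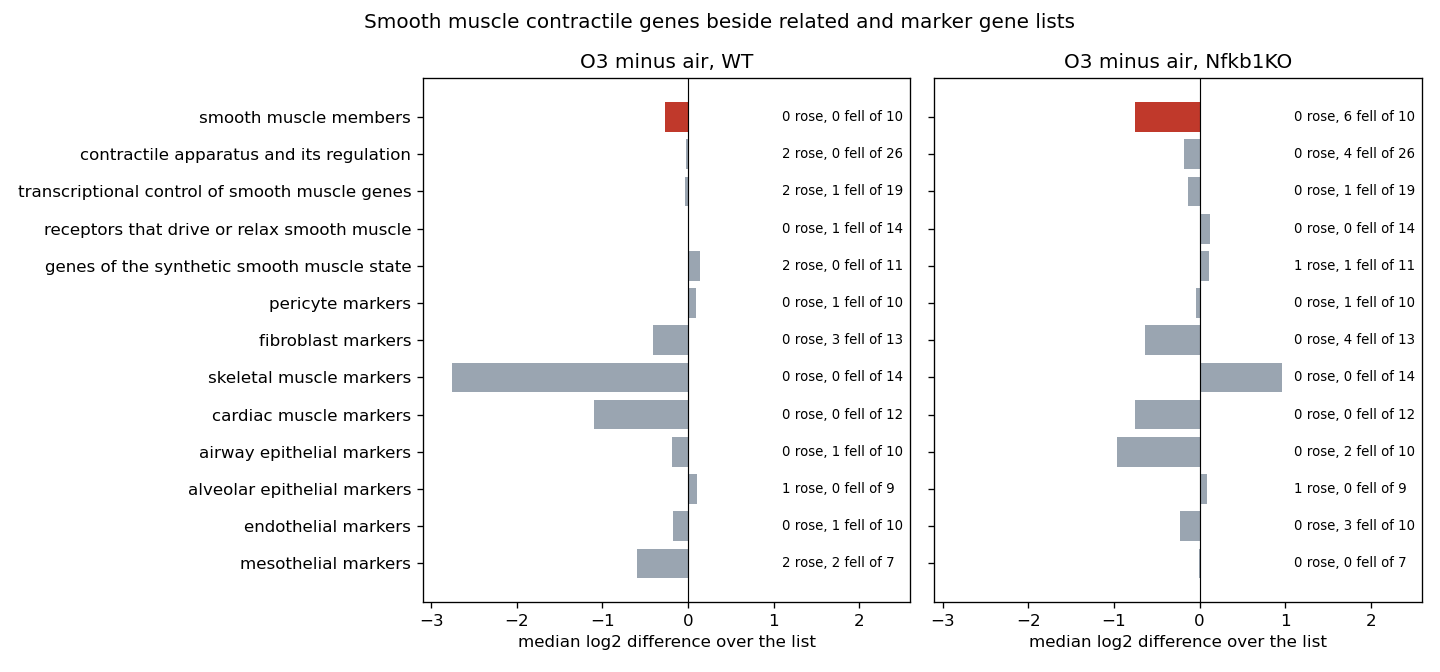
Median log2 difference after O3 (horizontal axis) in WT and in Nfkb1KO for the 10 smooth muscle contractile genes (red) and 12 other lists (gray), with the number of genes that rose or fell of those measured. The members' median was -0.27 with 0 called in WT and -0.76 with 6 called in Nfkb1KO.

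Markers of other cells in the homogenate were read beside the members, since a lung piece can hold more or less airway and vessel. After O3 in Nfkb1KO, 4 of 13 fibroblast markers fell (Fbln1, Dpt, Col1a2 and Mfap5), with a list median of -0.64. The log2 of the signal summed over the whole list is called the sum below. It was 15.99 to 16.15 in Nfkb1KO-Air and 15.74 to 15.84 in Nfkb1KO-O3, with no overlap. In the wild type, 3 of 13 fell, and the sum was 16.13 to 16.31 in WT-Air and 15.91 to 16.00 in WT-O3. Of 10 endothelial markers, 3 fell in Nfkb1KO (Kdr, Tie1 and Cdh5) and 1 fell in WT, and the sum was 15.52 to 15.65 in Nfkb1KO-Air and 15.18 to 15.53 in Nfkb1KO-O3. Of 10 pericyte markers, Abcc9 alone fell in each genotype, by 0.76 ± 0.20 in Nfkb1KO (adjusted p = 0.0432) and by 0.90 ± 0.20 in WT (adjusted p = 0.0226). The part of these cells in the fall of the members was not tested.

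Signals of airway and pulmonary vein markers also differed between arrays, and whether the pieces held more or less of these tissues was not tested. Of 10 airway epithelial markers, 8 were lower after O3 in Nfkb1KO and 2 higher, with a list median of -0.96. By limma 2 fell, the ciliated cell markers Foxj1, by 1.04 ± 0.24 (adjusted p = 0.0236), and Tppp3, by 0.88 ± 0.14 (adjusted p = 0.00455). Scgb1a1 went the other way, at 0.34 ± 0.11, and was not called (limma, adjusted p = 0.0941). The sum over the 10 was 16.97, 17.15 and 17.06 in Nfkb1KO-Air and 16.73, 17.11 and 16.32 in Nfkb1KO-O3. In WT, Tppp3 fell by 0.68 ± 0.14 (adjusted p = 0.0168), and the list median was -0.19. Of 12 cardiac muscle markers, which in the lung mark the muscle sleeve of pulmonary veins, 0 changed by limma, with 0 under an unadjusted p of 0.05. All 12 were lower after O3 in Nfkb1KO, with a median of -0.75. The sum over the 12 was 15.92, 16.32 and 15.50 in Nfkb1KO-Air and 15.29, 16.83 and 13.38 in Nfkb1KO-O3. In WT, all 12 were lower as well, with a median of -1.10, 0 called by limma and 1 under an unadjusted p of 0.05. The sum over the 12 was 14.58 to 16.89 in WT-Air and 13.15 to 15.18 in WT-O3. Nfkb1KO-O3 replicate 2 had the highest airway, cardiac and skeletal muscle marker sums of its group and the highest member mean. In WT-Air, replicate 1 was likewise highest and replicate 3 lowest in airway and cardiac marker sums and member mean, while replicate 3 was highest in skeletal muscle markers. Without Nfkb1KO-O3 replicate 2, the member median was -0.83. The part of the marker levels in the fall of the members was not tested.

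Of the remaining lists, 0 of 14 skeletal muscle markers changed in either genotype by limma, with 0 under an unadjusted p of 0.05 in Nfkb1KO and 7 in WT. Of 9 alveolar markers, Hopx alone rose, in both genotypes, and 2 of 7 mesothelial markers rose and 2 fell in WT alone, a difference between genotypes that was not called. Array control values differed between air and O3 in both genotypes, apart from an overlap in the actin ratio of Nfkb1KO. The log2 3' to 5' ratio of the actin control probe sets was 0.32 to 0.57 in Nfkb1KO-Air and 0.27 to 0.34 in Nfkb1KO-O3, and was 0.49 to 0.55 in WT-Air and 0.22 to 0.35 in WT-O3. That of the Gapdh control probe sets was -0.36 to -0.14 in Nfkb1KO-Air, -0.52 to -0.37 in Nfkb1KO-O3, -0.30 to -0.10 in WT-Air and -0.55 to -0.50 in WT-O3, with no overlap between air and O3 in either genotype. The log2 signal of the added hybridisation controls was 11.50 to 11.67 in Nfkb1KO-Air and 11.37 to 11.46 in Nfkb1KO-O3, and 11.64 to 11.76 in WT-Air and 11.41 to 11.52 in WT-O3. For the poly-A controls it was 8.73 to 8.81 in Nfkb1KO-Air, 7.97 to 8.69 in Nfkb1KO-O3, 8.68 to 9.08 in WT-Air and 8.22 to 8.47 in WT-O3. Their part in the members' values was not tested.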

How the data were processed

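Gene expression was measured on Affymetrix Mouse Genome 430 2.0 arrays in 12 mice, 3 in each of 4 groups that the labels gave. Values as deposited were linear signal intensities per probe set, which the authors had computed with MAS5 in Affymetrix Expression Console (versions not given in the sources used here) and scaled to a trimmed mean of 500 per array. Each value is thus relative to its array, and precision depends on how many arrays there are.

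The 64 control probe sets were set aside. A floor of 1 was applied to the signals before they were put on a log2 scale and quantile normalised between arrays. Probe sets above the 20th percentile in at least 1 array were kept (42559). Of all 45101, 34958 had 1 gene symbol, 932 had several and 9211 had none. The probe set with the highest mean stood for a gene, giving 17569 genes.

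With limma 3.58.1 in R 4.3.3, a model with a mean for every group was fitted over the 12 arrays with a trend in the spread (12.6 residual degrees of freedom with the prior). P-values were adjusted by Benjamini-Hochberg over all genes, and an adjusted p under 0.05 was called. The code was tested on simulated data. Figures were drawn with matplotlib 3.10.9 and promoters searched with Python 3.11.15.

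The members and gene lists were chosen with earlier results of these data known. All members were named, with up to 3 genes of smallest p per list and comparison and further ones where called, and the 5 non-member genes most like the member mean. Alternatives covered the scaling, floor, filter, probe sets, array weights, trend, samples in the fit, replicate block, the tests of the study's methods and leaving out arrays.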

Additional observations from a re-analysis of the deposited data

How the results depend on the processing

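After O3 in Nfkb1KO, the number of members called went from 6 to 0 with arrays centred on their medians (member median -0.40 against 0.25 for all genes), to 3 without the trend in the spread (Myh11, Acta2 and Actg2) and to between 2 and 7 with 1 array left out, where the 2, Myh11 and Acta2, came without Nfkb1KO-O3 replicate 1. Array weights gave 8, and the other settings gave 4 to 6, or 7 of 17 member probe sets. In WT, array weights called 1 member, Synpo2, and leaving out 1 array gave 0 to 1 (1 without WT-Air replicate 2), and in air leaving out 1 array gave 0 to 2 (2 without WT-Air replicate 1). Centring moved the interaction median from -0.63 to -0.29 (-0.82 to -0.40 with 1 array left out), and of the 87 genes it called after O3 in WT 11 were lower, against 394 of 949. The cause was not tested. Of 1150 single values, 26 changed sign, 0 of them called. These were, in air, Tagln at -0.08 under centring, Des at 0.03 without the 2 arrays that stand apart and Synpo2 at 0.39 with only the groups compared, where another probe set had the highest mean, and, after O3 in WT, Actg2 at -0.04 with array weights and -0.15 without those 2 arrays. In the interaction they were Des at 0.07 under centring and Synpo2 at -0.26 with the mean of its probe sets. With 1 array left out, the range crossed 0 in air for Des (-0.17 to 0.14) and Lmod1 (-0.14 to 0.25), after O3 between genotypes for Myl9 (-0.29 to 0.03) and Synpo2 (-0.33 to 0.17), for O3 in WT for Acta2 (-0.25 to 0.11), Actg2 (-0.15 to 0.32), Lmod1 (-0.36 to 0.01) and Myl9 (-0.53 to 0.08), and in the interaction for Synpo2 (-0.03 to 0.51). The replicate block left 5 members called, all but Myl9, among 860 genes. Deviations of same-numbered mice correlated at -0.166 to 0.107, so the numbers were not taken to pair mice. The methods' t-test in air called 1182 genes at its unadjusted threshold and 0 after Benjamini-Hochberg, and the genotype term of the two-way ANOVA 2241 and 198, with 0 members in any of these. That genotype term averages over air and O3, where the member medians were 0.32 and -0.27. Differences of opposite sign partly cancel in it, so its 0 members do not speak to either exposure alone. The alternatives without 2 arrays and with loess between arrays were chosen after seeing the data.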
